A study of Mus musculus with 15 samples.

Results

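The mitochondrial respiratory chain of the RPE (retinal pigment epithelium), a pigmented sheet of cells that supports the photoreceptors, was examined through 55 nuclear genes for subunits of complexes I to IV. They were taken by symbol from a table of 46078 genes. All 55 were found: 33 for complex I (5 core and 28 accessory subunits), 4 for complex II, 8 for complex III and 10 for complex IV. Every one of them passed the filter on low counts in each comparison.

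Complex I takes electrons from NADH and complex II takes them from succinate, both pass them to ubiquinone, complex III hands them on to cytochrome c, and complex IV delivers them to oxygen. Complexes I, III and IV pump protons, and the gradient drives ATP synthase. Apart from complex II, each complex joins subunits encoded in the nucleus with subunits encoded in mitochondrial DNA. The RPE relies on oxidative metabolism, which spares glucose for the photoreceptors.

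Bulk RNA sequencing covered 15 libraries in 4 groups, all from the RPE of female mice at postnatal day 14, with RNA taken from 2 hours after light onset. Mertk encodes a receptor tyrosine kinase used by the RPE to engulf shed photoreceptor outer segments, and Bai1 (gene symbol Adgrb1) belongs to the adhesion receptors and recognises phosphatidylserine on dying cells. Mertk KO (4 libraries) and Mertk WT (4 libraries) formed one contrast. Bai1 Tg pos (3 libraries) and Bai1 Tg neg (4 libraries), both with wild-type Mertk, formed the other. The strain label of all 15 libraries names a mixture of c57Bl/6J and B6;129-Mertktm1Grl/J, so the background is mixed in the controls too. The transgene's promoter and species, and whether a library is 1 animal or a pool, were not given by the sources at hand. P-values therefore measure the spread between libraries, which may be partly technical. Descriptions carry a tag whose first number is 12 for the Bai1 libraries and 17 or 21 for the others.

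Total counts were 9591129 to 20024507 per library, and Rpe65, an isomerase of the visual cycle that marks these cells, lay at 4175 to 6667 CPM (counts scaled to library size with TMM factors). Mertk, summed over all exons, ranged from 155 to 195.9 CPM with the knockout label and from 233.3 to 261.9 CPM in Mertk WT, a limited check because the exons removed are not given. Adgrb1 lay between 166.2 and 169.9 CPM in Bai1 Tg pos, and Bai1 Tg neg 1 to 3 had at most 0.1419 CPM. The library labelled Bai1 Tg neg 4 held 143.5 CPM of Adgrb1, against its label. The medians of the members and of each complex, and several named genes, are therefore given with and without it. Most other results on the Bai1 libraries, such as the difference between the contrasts and most companion lists, are given only with it. In bulk RNA, fewer cells of a type and less RNA per cell cannot be told apart.

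The 55 genes were well covered in every library and together took 0.491% (Bai1 Tg pos 1) to 0.6423% (Mertk KO 2) of all counts. Compared per kilobase of exon, complex IV genes had the highest median level, 119.4 CPM per kb. Complex III followed at 81.34, complex II at 55.22 and complex I at 47 CPM per kb. The highest level of all was that of Cox8a, a small complex IV subunit, at 558.5 CPM per kb, 21.6 times that of Cox6c (25.84 CPM per kb), the lowest of its complex. The exons summed for Cox6c come to 3567 bases, against 545 for Cox8a. Within complex III the range ran from Uqcr11, a small subunit, at 214 CPM per kb to Uqcrc1, a core protein, at 51.27 CPM per kb. In complex II it ran from the membrane anchor Sdhd at 114.3 CPM per kb to the iron-sulfur subunit Sdhb at 34.57 CPM per kb. Complex I spanned the widest range, from Ndufb11 at 208.4 CPM per kb to Ndufb2 at 3.756 CPM per kb, both accessory subunits of the membrane arm. Those summed for Ndufb2 come to 5628 bases, against a median of 1243 bases over the members. A long gene model lowers a level per length, for Cox6c as for Ndufb2. The exons summed for Uqcrc1 come to 4135 bases. In CPM its Mertk WT mean of 215.4 was the highest of complex III. Per length the subunits of 1 complex did not share 1 level. The order of the complexes also holds per length only, since by Mertk WT mean CPM the median of complex IV was not the highest. The part of gene length in these levels and in that order was not tested.

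**Figure D1:**
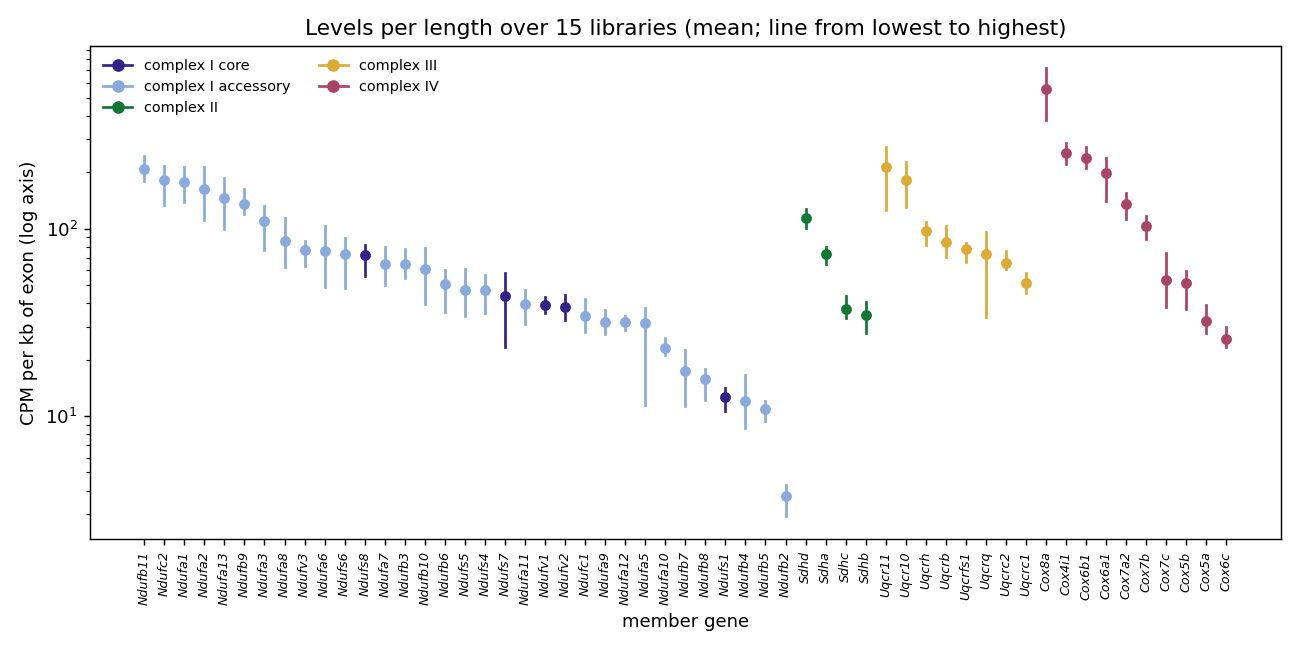
Level of each of the 55 member genes (x axis, grouped by complex) in CPM per kb of exon (y axis, log scale). Points are means over 15 libraries and lines run from the lowest to the highest library; Cox8a stands highest at 558.5 and Ndufb2 lowest at 3.756 CPM per kb.

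Between libraries the levels were narrow for most members. The ratio of the highest to the lowest of the 15 libraries had a median of 1.47 and was under 1.5 for 30 of the 55 genes. The steadiest gene was Ndufa12, a complex I accessory subunit, at 38.4 to 45.87 CPM. In 5 genes the ratio exceeded 2. Ndufa5, a subunit of the peripheral arm of complex I, ran from 11.77 CPM in Bai1 Tg pos 1 to 38.99 CPM in the library labelled Bai1 Tg neg 4. In the other 4, Uqcrq, Ndufs7, Uqcr11 and Ndufa6, the lowest library was Mertk WT 2. Uqcrq, a small complex III subunit, ran from 61.47 CPM there to 174.8 CPM in Mertk KO 2.

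For description, 300-base promoter windows from RefSeq (build GRCm38.p6) were searched for strings bound by known regulators of respiratory genes. The windows ran from 250 bases before to 50 bases after the annotated start. Windows were listed for 46 of the 55 genes. The string GCGCATGC, a core of the site of NRF1 (nuclear respiratory factor 1), was present in 7 of 46 member windows (15.2%) and in 5.54% of 9998 tested genes. CCGGAAG, a core bound by ETS factors such as GABPA, was in 10 (21.7%, against 18.5% of all). AAGATGGCG, bound by YY1, was in 5 (10.9%, against 3.34%). All 5 were complex I genes, but so were 30 of the 46 windows searched. AAGGTCA, bound by estrogen-related receptors, was in 4 (8.7%, against 3.17%). Both strands were searched, a gene was counted once for each string, and overlaps between strings were not treated specially. These exact matches are descriptions of the windows, not binding sites.

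For the gene of smallest p in Mertk KO against Mertk WT within each complex, the window is shown as 280 bases on the gene's strand, 5′ to 3′, up to 30 bases from the start, with matches in capitals. Ndufa11 (chr17:56717512-56717791, plus strand) holds the NRF1 string on each strand, the pair overlapping and beginning 60 bases before the start. Sdhb (chr4:140961021-140961300, plus strand) holds the NRF1 string on the opposite strand beginning 54 bases before the start and the ETS string beginning at base 7 of the transcript. Uqcr10 (chr11:4704315-4704594, minus strand) and Cox7c (chr13:86046766-86047045, minus strand) hold none of the 4 strings in the window.
Ndufa11: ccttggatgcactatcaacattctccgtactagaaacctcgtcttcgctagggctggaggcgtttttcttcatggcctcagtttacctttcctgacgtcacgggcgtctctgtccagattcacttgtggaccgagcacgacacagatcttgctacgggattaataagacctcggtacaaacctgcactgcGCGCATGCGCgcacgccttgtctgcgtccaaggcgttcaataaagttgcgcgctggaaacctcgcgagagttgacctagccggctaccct
Sdhb: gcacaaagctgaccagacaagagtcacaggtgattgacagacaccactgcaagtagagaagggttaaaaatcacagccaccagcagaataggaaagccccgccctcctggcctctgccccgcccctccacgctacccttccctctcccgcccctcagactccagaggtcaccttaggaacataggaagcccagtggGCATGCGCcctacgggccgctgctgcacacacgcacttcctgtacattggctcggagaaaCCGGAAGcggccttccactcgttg
Uqcr10: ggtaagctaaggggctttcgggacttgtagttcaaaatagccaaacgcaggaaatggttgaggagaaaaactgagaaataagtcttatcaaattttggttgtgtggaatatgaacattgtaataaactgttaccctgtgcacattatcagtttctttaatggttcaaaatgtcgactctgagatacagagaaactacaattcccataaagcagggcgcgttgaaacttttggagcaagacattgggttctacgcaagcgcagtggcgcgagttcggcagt
Cox7c: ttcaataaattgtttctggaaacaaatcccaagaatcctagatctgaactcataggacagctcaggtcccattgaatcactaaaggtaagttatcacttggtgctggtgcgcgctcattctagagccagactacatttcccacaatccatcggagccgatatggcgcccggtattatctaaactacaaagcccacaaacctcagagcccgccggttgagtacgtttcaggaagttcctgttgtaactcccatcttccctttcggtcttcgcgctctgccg

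In some libraries most members stood on the same side of their own means, with 5 of 55 above in Bai1 Tg pos 1 and 50 in Mertk KO 2. For each library the log2 CPM of each member was set against that gene's mean over 15 libraries, and the 55 deviations were averaged. Bai1 Tg pos 1 was lowest at -0.253 and held the lowest value of all 15 libraries for 24 of the 55 genes. Mertk KO 2 was highest at 0.199 and held the highest value for 22 genes. The other Mertk KO libraries were at -0.0434 (replicate 1), 0.0323 (replicate 3) and 0.146 (replicate 4). Mertk WT 1 to 4 were at 0.0596, -0.131, -0.00147 and -0.013. The Mertk groups overlapped, since Mertk KO 1 lay below 3 of the 4 Mertk WT libraries. Bai1 Tg pos 2 and 3 were at -0.105 and 0.0497, and Bai1 Tg neg 1 to 4 at 0.00715, -0.0134, 0.0904 and -0.0237. Here 2 of 3 Bai1 Tg pos libraries lay below every Bai1 Tg neg library and the third lay above 3 of the 4.

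**Figure D2:**
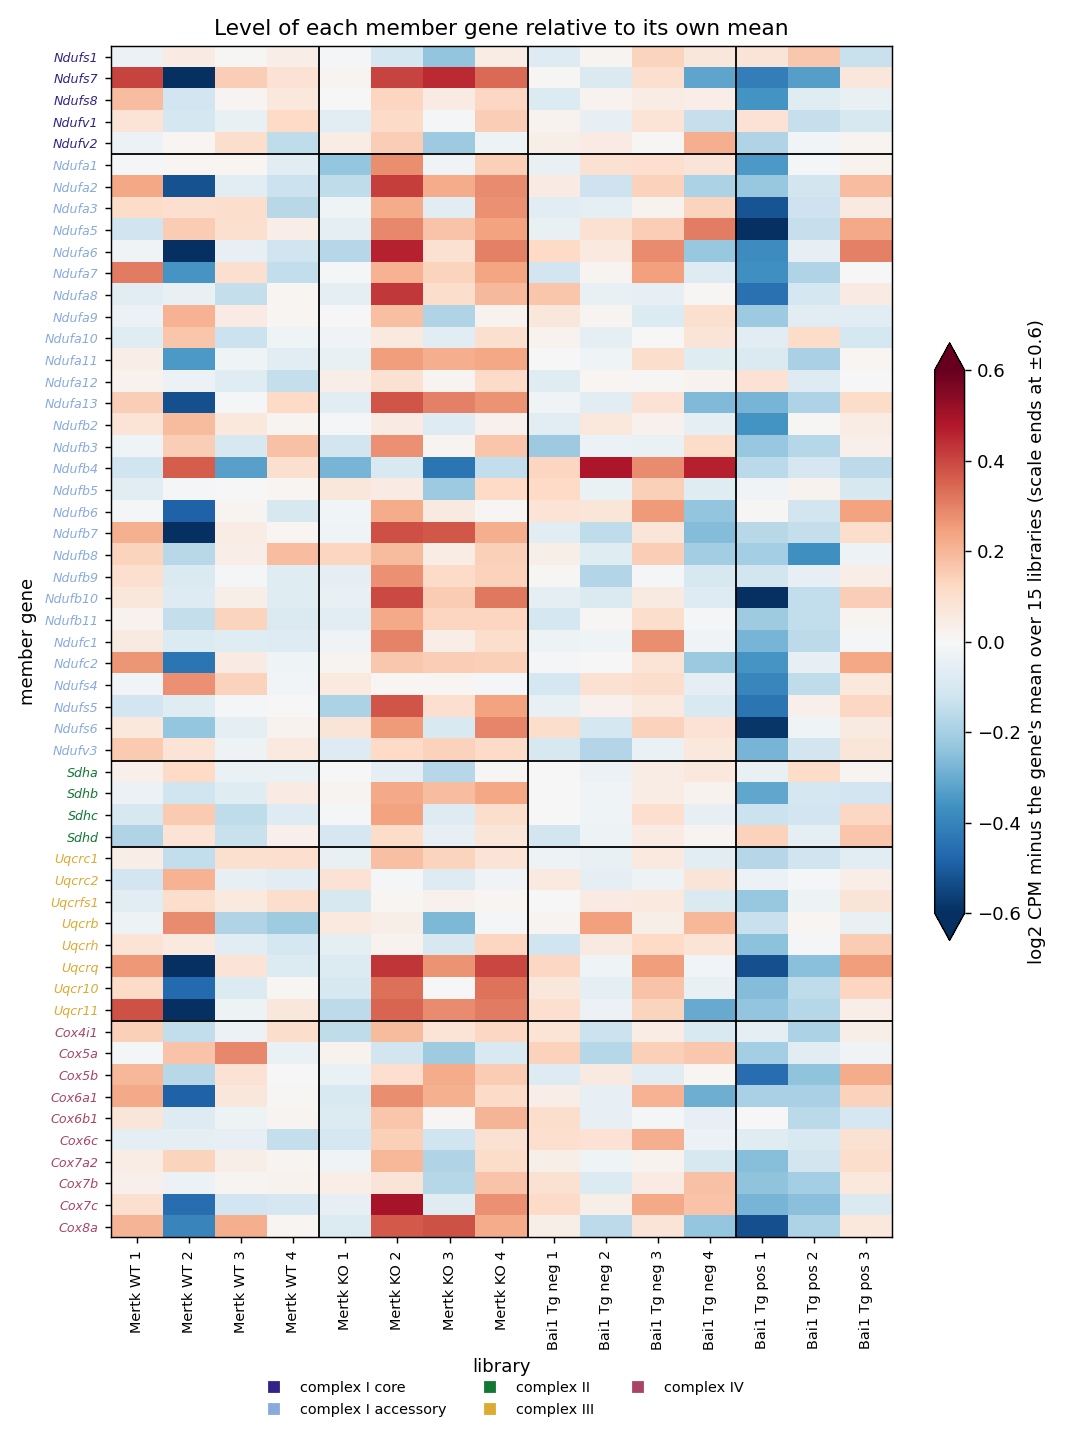
Heat map of the 55 members (rows, coloured by complex) in 15 libraries (columns, by group), as log2 CPM minus the gene's mean over the libraries, with the colour scale ending at ±0.6. Mertk KO 2 is high in most rows, Bai1 Tg pos 1 is low in most rows, and Mertk WT 2 is mixed.

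In 8 of the 15 libraries the 4 complexes had mean deviations of the same sign. In Bai1 Tg pos 1 the mean deviation was -0.286 for complex I, -0.23 for complex III, -0.229 for complex IV and -0.0857 for complex II. In Mertk KO 2 the same 4 complexes were at 0.217, 0.169, 0.191 and 0.13. Mertk WT 2 did not move as 1 block. It was lowest of all libraries for 13 genes, among them Ndufa6, Ndufs7, Uqcrq, Uqcr11 and Cox7c, and highest for 8, among them Sdha, Uqcrc2, Uqcrb, Ndufa9 and Ndufs4. Its mean deviation was -0.126 for complex I and -0.22 for complex III, while complex II was at 0.0587. In Mertk WT 1 the order was turned, with complex II at -0.0689 and complexes I, III and IV at 0.0588, 0.0832 and 0.095.

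Other gene groups of the same machinery and of protein synthesis were set beside the members. In Bai1 Tg pos 1, ATP synthase genes and genes of the cytosolic ribosome stood below their means too, and in Mertk KO 2 and 4 above them. Transcripts of the mitochondrial genome summed to 29020 CPM in Bai1 Tg pos 1, the highest of 15 libraries, while the lowest sums were those of Mertk KO 4 (17400 CPM) and Mertk KO 2 (18710 CPM). Nuclear and mitochondrially encoded genes thus stood on opposite sides of their means in these 3 libraries. In Mertk KO 1 the members were at -0.0434 and the sum was 24020 CPM. The part of library composition in these deviations was not tested.

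**Figure D3:**
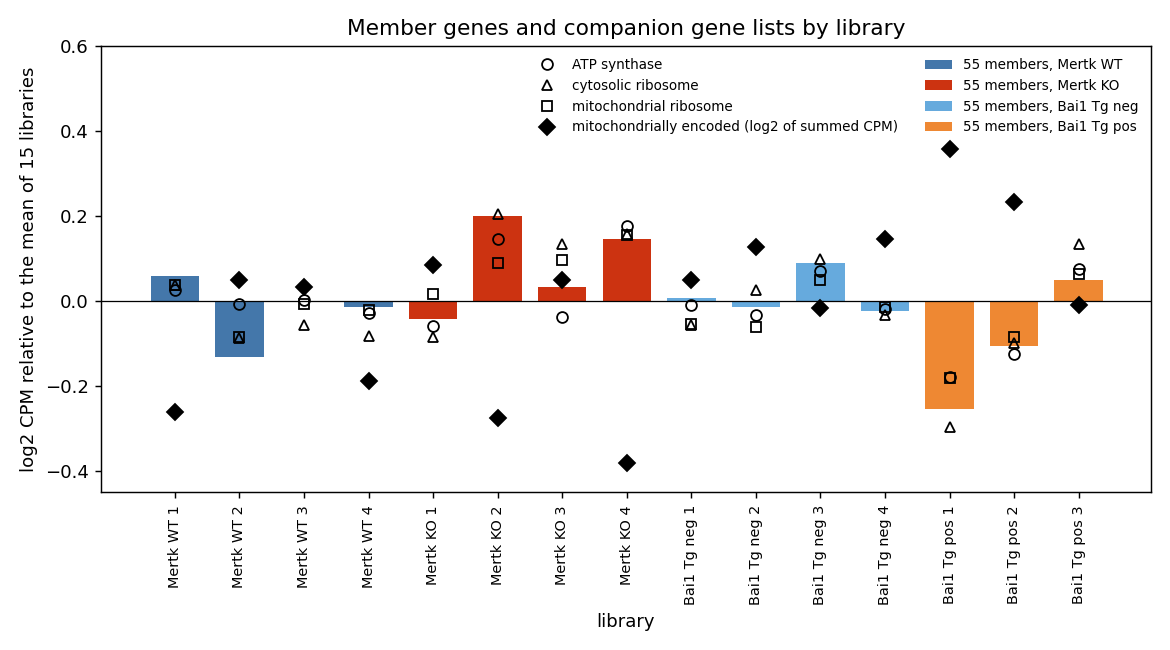
Mean log2 deviation of the 55 members per library (bars, coloured by group) with the same measure for ATP synthase, cytosolic ribosome and mitochondrial ribosome genes (open symbols), and the log2 summed CPM of mitochondrially encoded genes relative to its mean (filled diamonds). Bars reach from -0.253 in Bai1 Tg pos 1 to 0.199 in Mertk KO 2, where the diamonds lie on the other side of 0.

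The Mertk groups were compared to ask which transcripts differ when the engulfment receptor is disrupted. None of the 55 members passed edgeR's quasi-likelihood test at an adjusted p of 0.05, in a comparison that called 0.223% of 13447 genes (8 higher, 22 lower), nor with DESeq2 or limma-voom (0 members each). At an unadjusted p under 0.05 there were 5 members, against 5.58% of all genes. No member had all Mertk KO libraries above all Mertk WT libraries or all below, against 1.74% and 1.78% of genes. The fold changes leaned upward: 43 members were above 0 (49.7% of all genes were) and 12 below, with a median log2 fold change of 0.0755 beside -0.000967 over all genes. They ran from -0.268 (Ndufb4) to 0.385 (Uqcrq), with adjusted p of 0.777 to 1. The 95% interval lay within 2-fold for 54 of 55 members, all but Uqcrq, and within 1.5-fold for 46.

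By complex, the median was highest for complex I with all libraries. There 28 of 33 genes were above 0 with a median of 0.117, made up by accessory subunits (24 of 28, median 0.122) more than by core subunits (4 of 5, median 0.0269). Complex II had 3 of 4 genes above 0 (median 0.0774), complex III 4 of 8 (0.0285) and complex IV 8 of 10 (0.0729). Leaving out each library in turn, complex I ran from 0.0727 (without Mertk WT 2) to 0.164 (without Mertk KO 1) and complex II from 0.0316 (without Mertk KO 2) to 0.13 (without Mertk WT 2). Complex III ran from 0.0113 (without Mertk KO 2) to 0.0652 and complex IV from 0.0112 (without Mertk WT 2) to 0.122, both highest without Mertk KO 1. Complex II therefore stood above complex I without Mertk WT 2, and the differences between complexes were not tested.

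In complex I, Ndufa11, a membrane-arm accessory subunit on chromosome 17, had the smallest p. It was at 101.9, 125, 122.2 and 123.2 CPM in Mertk KO 1 to 4 and at 107.8, 82.78, 103 and 100.2 CPM in Mertk WT 1 to 4. Mertk KO 1 lay among the Mertk WT libraries and the other 3 lay above all of them. The log2 fold change, given from here on as a log2 ratio, was 0.26 (SE 0.1, adjusted p = 0.78, edgeR). Ndufa8, a subunit on the intermembrane-space side, is the 1 member on chromosome 2, the chromosome of Mertk, at 36036326 to 36049406. Its Mertk KO libraries held 70.61, 98.18, 78.78 and 83.89 CPM and its Mertk WT libraries 69.74, 70.9, 66.28 and 73.88 CPM. Again replicate 1 of Mertk KO was the overlapping library. Its log2 ratio was 0.23 (SE 0.0987, adjusted p = 0.853).

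Ndufa6, which helps to hold the mitochondrial acyl carrier protein on the peripheral arm, was at 47.85 ± 8.91 CPM (SD, n = 4) in Mertk KO against 36.94 ± 6.45 CPM (n = 4) in Mertk WT, and its ranges of 37.16 to 57.82 and 27.41 to 41.29 CPM overlapped. The core subunit Ndufs7, which carries the last iron-sulfur cluster before ubiquinone, was at 74, 97.04, 99.69 and 92.44 CPM in Mertk KO 1 to 4. In Mertk WT 1 to 4 it was at 96.78, 40.06, 80.9 and 77.63 CPM, so that Mertk WT 2 alone set the low end. Ndufb4, a membrane-arm subunit with the lowest fold change, averaged 11.66 ± 1.24 CPM in Mertk KO against 13.99 ± 2.91 CPM in Mertk WT.

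In complex II, Sdhb carries the iron-sulfur clusters that take electrons from the flavoprotein Sdha. Sdhb was at 78.02, 90.32, 87.71 and 90.55 CPM in Mertk KO 1 to 4 and at 75.25, 70.9, 73.23 and 79.71 CPM in Mertk WT 1 to 4. Only Mertk KO 1 fell inside the Mertk WT range. This is a log2 ratio of 0.21 (SE 0.0805, adjusted p = 0.777). The flavoprotein Sdha averaged 273.5 ± 15.2 CPM in Mertk KO against 287.8 ± 15.1 CPM in Mertk WT (log2 ratio -0.079, adjusted p = 0.914). For the anchors Sdhc and Sdhd the log2 ratios were 0.10 and 0.052 (adjusted p = 0.914 and 0.941).

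In complex III, Uqcr10 and Uqcrq, both small subunits of the membrane part, had the smallest p. Uqcr10 was at 98.48, 132.5, 105.2 and 132.1 CPM in Mertk KO 1 to 4 and at 114.1, 76.19, 99.33 and 106.1 CPM in Mertk WT 1 to 4. Uqcrq was at 122.3, 174.8, 156.3 and 171 CPM in Mertk KO 1 to 4 and at 155.2, 61.47, 137.1 and 122.3 CPM in Mertk WT 1 to 4. For both genes Mertk WT 2 was lowest and the groups overlapped. Their log2 ratios were 0.24 (adjusted p = 0.905) and 0.39 (SE 0.282, adjusted p = 0.91). Uqcrfs1, the Rieske iron-sulfur protein, had a log2 ratio of -0.070 (adjusted p = 0.914).

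In complex IV, Cox7c, a small subunit, was at 57.46, 83.88, 56.56 and 72.04 CPM in Mertk KO 1 to 4 and at 63.55, 43.38, 55 and 55.57 CPM in Mertk WT 1 to 4. The groups overlapped through Mertk KO 1 and 3. The log2 ratio was 0.31 (SE 0.147, adjusted p = 0.893). Cox5a, a subunit on the matrix side, leaned the other way, at 20.71 ± 1.39 CPM in Mertk KO against 23.9 ± 2.58 CPM in Mertk WT (log2 ratio -0.21, adjusted p = 0.9). Cox5a shares 38.7% of its exon bases with the neighbouring gene Gm26631, and counting without strand cannot separate them.

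**Figure D4:**
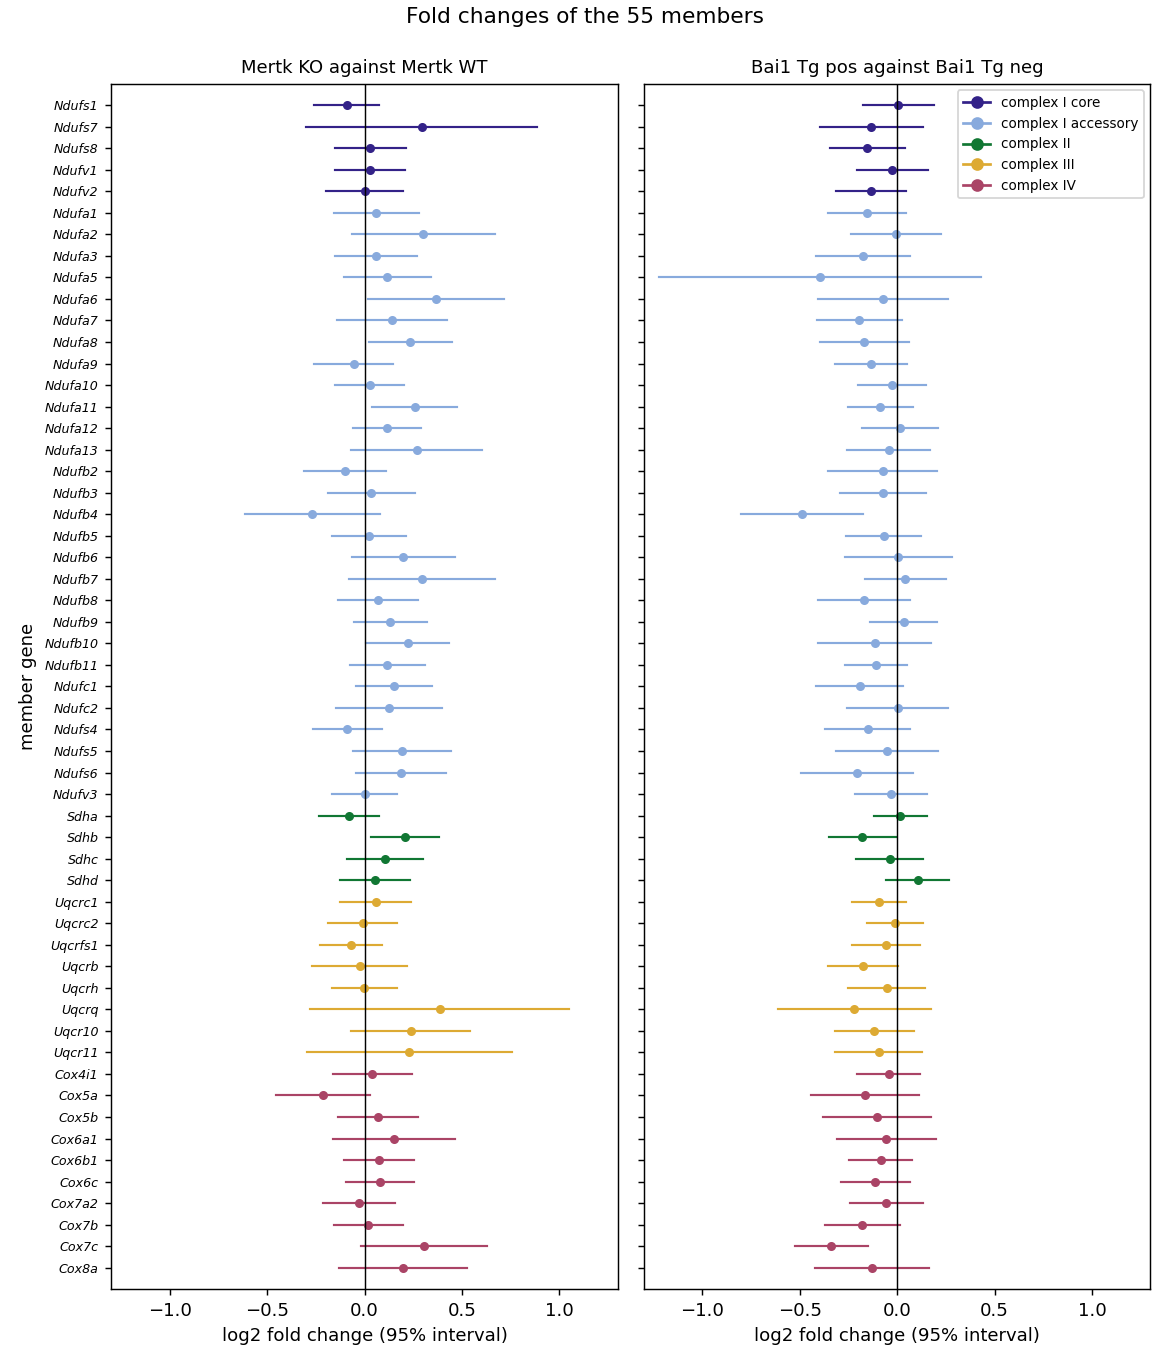
Log2 fold change of each member (x axis) with its 95% interval from edgeR, for the Mertk contrast (left) and the Bai1 contrast (right), genes in rows by complex. On the left 43 of 55 points lie above 0 and on the right 47 of 55 lie below 0, and no gene passed the threshold in either panel.

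Bai1 Tg pos was set against Bai1 Tg neg to ask which transcripts differ when the receptor is added. No member passed the test (edgeR, 0 of 55), in a comparison that called 0.0144% of 13855 genes, and neither DESeq2 nor limma-voom called one (0 members each). At an unadjusted p under 0.05 there were 3 members, against 5.18% of genes. The lean was downward, with 8 members above 0 (49.9% of all genes were) and 47 below, and a median log2 fold change of -0.0945, beside -0.000497 over all genes. Without the library labelled Bai1 Tg neg 4 the median was -0.109 with 7 members above 0. Values ran from -0.49 (Ndufb4) to 0.106 (Sdhd), with adjusted p of 0.719 to 0.998. The interval lay within 2-fold for 54 members, all but Ndufa5, and within 1.5-fold for 52. In 5 members (Ndufb4, Sdhb, Uqcrc1, Uqcrb and Cox7c) every Bai1 Tg pos library lay below every Bai1 Tg neg library, against 3.41% of genes, and in 0 members above, against 2.79%. Members share libraries, so these counts are a description. The library labelled Bai1 Tg neg 4, with 143.5 CPM of Adgrb1, was counted there as a control. For Ndufb4, Sdhb, Uqcrb and Cox7c it lay within the range of Bai1 Tg neg 1 to 3, so their non-overlap depends on its label. For Uqcrc1 it was at 202 CPM, below those libraries and just above Bai1 Tg pos 3 (201.6 CPM). A grouping by Adgrb1 reads was not tested.

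All 8 complex III genes and all 10 complex IV genes had fold changes below 0, with medians of -0.0949 and -0.108. Complex I had 27 of 33 below 0 (median -0.0861) and complex II 2 of 4 (median -0.0108). Without the library labelled Bai1 Tg neg 4 the medians of complexes I to IV were -0.109, -0.011, -0.126 and -0.135. None of these 4 sets held a gene that passed the test. Leaving out each library in turn, complex I ran from -0.164 to -0.0447, complex II from -0.0509 to 0.0243 and complex III from -0.164 to -0.0426. All of these were lowest without Bai1 Tg pos 3 and highest without Bai1 Tg pos 1. Complex IV ran from -0.189 without Bai1 Tg pos 3 to -0.0601 without Bai1 Tg pos 2, and was -0.071 without Bai1 Tg pos 1.

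Cox7c had the smallest p of all members. It was at 49.05, 50.06 and 56.03 CPM in Bai1 Tg pos 1 to 3 and at 64.54, 61.06, 69.68 and 67.1 CPM in Bai1 Tg neg 1 to 4. The groups did not overlap. The log2 ratio was -0.34 (SE 0.0878, adjusted p = 0.719), and it was -0.33 (adjusted p = 0.988) leaving out the library labelled Bai1 Tg neg 4. A near-identical copy at another locus, Gm12338 on chromosome 11 (100% identity over 192 bases), held 6.68% as many counts as Cox7c, and with the copies' counts added the fold change was -0.27. How reads were split between them cannot be told apart in summed counts.

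Ndufb4 was at 12.26, 12.78 and 12.28 CPM in Bai1 Tg pos 1 to 3 and at 15.02, 19.24, 16.75 and 19.02 CPM in Bai1 Tg neg 1 to 4. The 3 Bai1 Tg pos values were nearly equal and all lay below the controls. Its log2 ratio was -0.49 (SE 0.147, adjusted p = 0.903), and -0.45 (adjusted p = 0.988) leaving out the library labelled Bai1 Tg neg 4. In Mertk WT, the other control group, Ndufb4 was at 12.64, 17.71, 10.95 and 14.67 CPM, a range that holds all 3 Bai1 Tg pos values. A copy of Ndufb4 at another locus, Ndufb4c (100% identity over 390 bases), held 2.32% as many counts.

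Sdhb was at 62, 71.71 and 71.09 CPM in Bai1 Tg pos 1 to 3 and at 76.86, 76.01, 79.4 and 78.18 CPM in Bai1 Tg neg 1 to 4. The groups did not overlap, and Bai1 Tg pos 1 was the lowest of all 15 libraries. Sdhb had a log2 ratio of -0.18 (SE 0.0801, adjusted p = 0.948), and of -0.17 (adjusted p = 0.988) leaving out the library labelled Bai1 Tg neg 4. Among its partners, Sdha had a log2 ratio of 0.017, Sdhc of -0.038 and Sdhd of 0.11 (adjusted p = 0.994, 0.986 and 0.958).

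In complex III, Uqcrb, a small subunit near the ubiquinone site, was at 67.59, 74.74 and 71.68 CPM in Bai1 Tg pos 1 to 3. In Bai1 Tg neg 1 to 4 it was at 74.78, 87.87, 75.78 and 84.97 CPM. The groups touched without overlapping. Here the log2 ratio was -0.18 (adjusted p = 0.948), or -0.15 leaving out the library labelled Bai1 Tg neg 4. The core protein Uqcrc1 was at 194.7 ± 7 CPM (SD, n = 3) against 208.6 ± 8.05 CPM (n = 4), with a log2 ratio of -0.095 (adjusted p = 0.958), or -0.11 leaving out that library. Ndufa5 showed how 1 library can set a mean. It was at 11.77, 28.6 and 36.8 CPM in Bai1 Tg pos 1 to 3 and at 30.5, 33.48, 34.91 and 38.99 CPM in Bai1 Tg neg 1 to 4.

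Leaving out each library in turn showed where the 2 leans rest. For Mertk KO against Mertk WT the median of the members stayed above 0, from 0.046 (38 genes above 0) without Mertk KO 2 to 0.131 (43 genes) without Mertk KO 1. Without both Mertk KO 2 and Mertk WT 2, a choice made after seeing the data, it was 0.0292 with 34 genes above 0, and the complex IV median was -0.00393. Within the libraries of first tag number 17 alone, 3 in each group, the median was 0.0681. For Bai1 Tg pos against Bai1 Tg neg the median ran from -0.171 without Bai1 Tg pos 3 to -0.0434 without Bai1 Tg pos 1. In the latter case 20 of 55 genes were above 0 in place of 8. Leaving out both Bai1 Tg pos 1 and the library labelled Bai1 Tg neg 4, also chosen after seeing the data, gave -0.048 with 16 genes above 0. The complex II median in the Bai1 contrast changed sign, to 0.0243, without Bai1 Tg pos 1. No member passed the threshold in any of these fits.

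**Figure D5:**
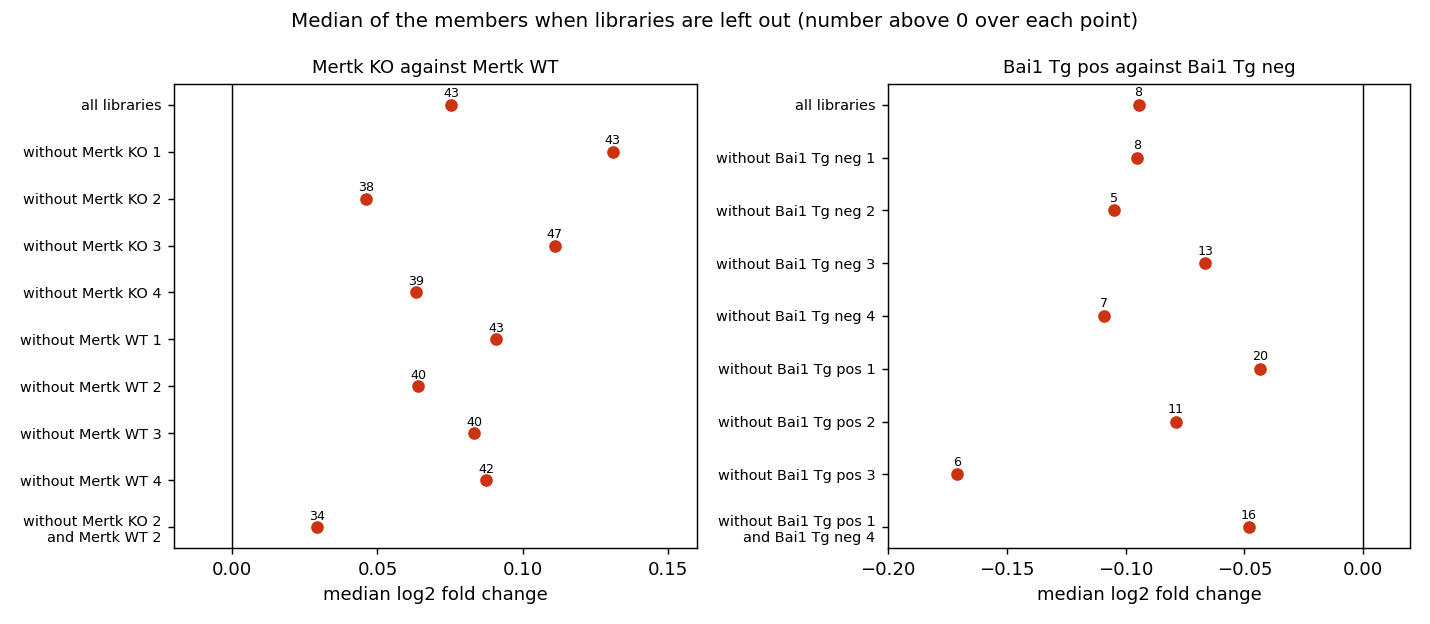
Median log2 fold change of the 55 members (x axis) with all libraries and with each library, or a pair, left out (rows), for the Mertk contrast (left) and the Bai1 contrast (right). The number over a point is how many members lie above 0. The medians keep their sign and come nearest to 0 without Mertk KO 2 and Mertk WT 2 (0.0292) and without Bai1 Tg pos 1 (-0.0434).

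The 2 contrasts share no library, and their difference was tested directly over all 15 libraries. No member passed (edgeR, 0 of 55, adjusted p of 0.288 to 0.997), where 0.103% of 14520 genes did. At an unadjusted p under 0.05 there were 6 members, against 7.53% of genes. The difference, Mertk effect minus Bai1 effect, had a median of 0.192 over the members and 0.00274 over all genes. The smallest p values were those of Sdhb, with a difference of 0.39 (SE 0.109, adjusted p = 0.288), and Cox7c, with 0.65 (SE 0.184, adjusted p = 0.297).

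The control groups, Bai1 Tg neg and Mertk WT, both carry wild-type Mertk and no labelled transgene, but their tags differ, so genotype line and tag cannot be told apart. Each also serves in 1 of the contrasts above. No member passed (edgeR, 0 of 55), where 0.431% of 13459 genes did. There were 2 members at an unadjusted p under 0.05, against 7.99% of genes, and DESeq2 and limma-voom called 0. With 32 of 55 above 0 (50.6% of all genes were), the median log2 fold change was 0.0166, and medians by complex were 0.021, 0.0371, 0.0263 and -0.0172 for complexes I to IV. These were close to 0 and turned with single libraries: complex I was at -0.0185 without Mertk WT 2 and complex IV at 0.0226 without Bai1 Tg neg 2. Complex III reached 0.106 without Mertk WT 1. With the level of rod markers as a covariate complex II was at 0.154 and complex III at -0.0118. Rod levels did not overlap between these groups, so that covariate and the group cannot be told apart. Leaving out Mertk WT 2 or Bai1 Tg neg 3 turned the median to -0.00767 and -0.00227, and without the library labelled Bai1 Tg neg 4 it was 0.0212. Cox6c, a complex IV subunit, was at 98.51, 97.52, 107.1 and 89.76 CPM in Bai1 Tg neg 1 to 4 and at 88.23, 88.18, 88.91 and 83.14 CPM in Mertk WT 1 to 4. Every Bai1 Tg neg library lay above every Mertk WT library, as in 2.79% of genes, and 0 members had the reverse (2.96% of genes). Its log2 ratio was 0.17 (adjusted p = 0.549), and 0.21 (adjusted p = 0.453) leaving out the library labelled Bai1 Tg neg 4. For Cox7c the log2 ratio was 0.27 (adjusted p = 0.482) and for Ndufb4 0.32 (adjusted p = 0.627).

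Companion genes of the respiratory chain, from lists chosen with earlier results known, were described the same way. Among subunits outside the 55, the isoform Cox4i2, linked to oxygen-dependent regulation of complex IV, was at 1.813 to 3.329 CPM in Mertk KO, against 4.272 to 8.406 CPM in Mertk WT. Its groups did not overlap, as in 1.78% of genes with Mertk KO below, and the log2 ratio was -1.10 (SE 0.284, adjusted p = 0.335). It lies on chromosome 2 as Mertk does, and the part of its position was not tested. The muscle-type isoform Cox8b was abundant, at 110.4 to 271.2 CPM, and had a log2 ratio of -0.26 (adjusted p = 0.948) in Bai1 Tg pos against Bai1 Tg neg. Cox7a1 was at 0.7848 to 3.258 CPM and Cox6a2 had 0 counts in all 15 libraries. Of the assembly factors, 0 of 47 tested passed in either contrast. Ndufaf5, which modifies a complex I subunit, had a log2 ratio of -0.48 in the Bai1 contrast (adjusted p = 0.948).

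ATP synthase, cytosolic ribosome and mitochondrial ribosome genes leaned as the members did in Mertk KO, with 14 of 18, 65 of 78 and 59 of 76 above 0 (medians 0.0277, 0.113 and 0.0781). In Bai1 Tg pos 2 of 18, 22 of 79 and 33 of 76 were above 0 (medians -0.0947, -0.0876 and -0.0129). None of these genes passed the threshold in either contrast. The citric acid cycle had 4 of 13 above 0 in Mertk KO (median -0.0409) and 7 of 13 in Bai1 Tg pos (0.0174). Transcripts of the mitochondrial genome went the other way from the members, with 2 of 11 above 0 in Mertk KO (median -0.04) and 9 of 11 in Bai1 Tg pos (0.122), again with 0 passing. In Bai1 Tg neg against Mertk WT they shifted further, with 10 of 11 above 0 (median 0.217), where the members' median was 0.0166. Among regulators of mitochondrial genes, Ppargc1b had a log2 ratio of -0.58 in Mertk KO (adjusted p = 0.74). Esrrb was lower in Bai1 Tg neg than in Mertk WT, at 1.277 ± 0.621 and 11.11 ± 6.24 CPM (log2 ratio -3.14, adjusted p = 0.0323, edgeR), and Rplp0, a ribosomal stalk protein, was higher (0.72, adjusted p = 0.00378). With the level of rod markers as a covariate both calls were lost, at -0.33 (adjusted p = 0.842) and 0.40 (adjusted p = 0.711). Mean rod log2 CPM was 2.957 to 4.434 in Bai1 Tg neg and 5.295 to 6.941 in Mertk WT, without overlap. This covariate therefore cannot be told apart from the group, and the part of rod RNA in the 2 calls was not tested. Leaving out the library labelled Bai1 Tg neg 4, Esrrb was at -3.04 (adjusted p = 0.132) and Rplp0 at 0.72 (adjusted p = 0.0142). Esrrb also lost its call without Bai1 Tg neg 1 (adjusted p = 0.14) or 2 (0.157).

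Markers of rods, which are rich in mitochondria, leaned with the groups. Of 26 rod genes tested, 2 were above 0 in Mertk KO against Mertk WT (median -0.51), 24 in Bai1 Tg pos against Bai1 Tg neg (0.783) and 1 in Bai1 Tg neg against Mertk WT (-3.31). The number that passed the test was 0, 0 and 1. Summed rod levels were 3640 to 4496 CPM in Mertk KO, against 3756 to 7338 CPM in Mertk WT, where Mertk WT 2 was highest. They were 2776 to 3651 CPM in Bai1 Tg pos and 2444 to 2999 CPM in Bai1 Tg neg. The ranges overlapped in both contrasts, and none of the 26 was at 0 in all libraries. With the rod level as a covariate the members' median was 0.0544 in the Mertk contrast, -0.0768 in the Bai1 contrast and 0.00588 between the controls. Rod levels did not overlap between the controls, so there the covariate cannot be told apart from the group.

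Markers of smooth muscle and pericytes, cells of vessel walls, leaned upward in the Bai1 contrast. Their summed level was 375.8, 509.1 and 327.8 CPM in Bai1 Tg pos 1 to 3 and 256.9 to 307 CPM in Bai1 Tg neg, so these sums did not overlap. As mean log2 CPM the same markers did overlap, at 1.471 to 2.892 in Bai1 Tg pos and 1.459 to 2.027 in Bai1 Tg neg. The low end of Bai1 Tg pos was replicate 3. Bai1 Tg pos 1 and 2, the highest pair of the Bai1 libraries, were also the pair in which the members were lowest. Of 6 such genes tested, 5 were above 0 (median 0.416), 3 had an unadjusted p under 0.05 and 0 passed the test. In Mertk KO against Mertk WT 5 of 6 were above 0 as well (median 0.19). None of the 9 markers listed was at 0 in all libraries, though Cnn1, a contractile protein, was at 0 in 11. Their part in the lean of the members was not tested.

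Members are short, with a median of 1243 exon bases against 2581 over genes with a count, and with an offset for gene length the medians were 0.0631 and -0.0572. The part of rod RNA and of fragment length in the leans was not otherwise tested.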

How the data were processed

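RNA of 15 RPE libraries was sequenced from poly-A-selected RNA with the TruSeq kit, per the labels' protocols. The authors deposited raw counts per gene, made with featureCounts 1.5.0, which kept fragments with both ends mapped and ignored strand, per the file headers, after STAR alignment to GRCm38, per the submitters' processing notes. No annotation release was named in the sources at hand. Groups follow the titles. Differences were tested on the counts with edgeR 4.0.16 in R 4.3.3 (TMM, filterByExpr, robust quasi-likelihood F test, two-sided, Benjamini-Hochberg over all genes tested, threshold 0.05), a pipeline first tested on simulated data. SE and 95% intervals were derived from each fold change and F value. Log2 CPM used a prior count of 2. Depth was 9591129 to 20024507 counts, so 3 counts correspond to 0.15 to 0.313 CPM, and such limits cover counting error only. No pair of replicates agreed within sampling noise (lowest chi-square per degree of freedom 5.035). Copies at other loci were sought among the genes counted in the table with blastn 2.17.0 (at least 95% identity over 150 bases) and 12 members had one, with at most 7.34% of the member's counts.

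The members and lists were chosen with earlier results of these data known. Genes named were drawn from the 2 of smallest p per complex and comparison, the most and least abundant per complex, all of complex II, members on chromosome 2, and, of companion lists, genes past the threshold or of smallest p. Not all of these are given above. In the Bai1 contrast Ndufa7 and Cox7b had log2 ratios of -0.19 and -0.18 (edgeR, adjusted p = 0.958 and 0.948). Between the controls Ndufa6, Uqcrb and Uqcr10 had 0.255, 0.15 and 0.13 (edgeR, adjusted p = 0.714, 0.806 and 0.865). Ndufa5, Ndufs7, Uqcr11, Uqcrc2, Uqcrfs1, Ndufa9, Ndufs4, Ndufa12, Ndufc2, Ndufv3, Ndufa3, Ndufc1 and the neighbour or copies Gm26631, Gm12338 and Ndufb4c were named after their values were seen. Alternatives were DESeq2 1.42.0, limma 3.58.1 voom, other size factors, no filter, a replicate block, all libraries in 1 fit, rod, tag and length terms, copies summed, and leaving out libraries.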

Additional observations from a re-analysis of the deposited data

Results flagged for a closer look

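Single libraries that stood far from the rest of their group were looked for in the groups of 4, by comparing the gap to the nearest library with the whole range of the group. Among 165 member-by-group sets, 10 (6.06%) had such a library, where chance alone gives about 5%, so the pattern of flags is near that rate. Mertk KO 1 was the low library in 5 of the 10. It held Ndufa11 at 101.9 CPM (other Mertk KO libraries 122.2 to 125), Ndufc2 at 137.7 CPM (150.2 to 152.2) and Ndufv3 at 180.6 CPM (206.3 to 210.2), all complex I subunits. In complex III it held Uqcrfs1 at 98.86 CPM (106.4 to 107.6) and Uqcr11 at 120.9 CPM (164.1 to 171.4).

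In the control groups, Mertk WT 4 was low for Ndufa3 at 83.77 CPM (others 100.7 to 101.5) and for Cox6c at 83.14 CPM (88.18 to 88.91). Ndufc1 was high in Mertk WT 1 at 52.99 CPM (48.23 to 48.59) and in Bai1 Tg neg 3 at 62.01 CPM (49.98 to 50.32). Cox5a was low in Bai1 Tg neg 2 at 19.66 CPM (24.41 to 24.76). Averaged over complex I, Bai1 Tg neg 3 stood above its group, with a mean log2 deviation of 0.0918 against -0.0278 to -0.00807 in the other Bai1 Tg neg libraries. This was 1 of 15 sets of group means examined, near the 5% that chance gives.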

How the results depend on the processing

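No member passed the threshold under any alternative run, and the medians of the members in the Mertk and Bai1 contrasts kept their sign in all of them. Keeping all libraries, the median ran from 0.0544 to 0.0927 and from -0.112 to -0.0572. In turn leaving out each library gave 0.046 to 0.131, -0.171 to -0.0434, and, between the control groups, -0.00767 (without Mertk WT 2) to 0.0356, with -0.00227 without Bai1 Tg neg 3.

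Counts over all genes moved more, and the cause was not tested. In the Mertk contrast (30 called) DESeq2 gave 77, no filter 69, tag 17 alone 14, and leaving out a library 16 to 31. In the Bai1 contrast (2 called) DESeq2 gave 26, no filter 85, all 15 libraries in 1 fit 0, limma-voom 0, the rod covariate 1, leaving out Bai1 Tg pos 1 with Bai1 Tg neg 4 11, and leaving out a library 0 to 54. Between controls (58 called) DESeq2 gave 249, no filter 138, the rod covariate 0, and leaving out a library 13 to 89. Rod levels did not overlap between the controls, so that covariate cannot be told apart from the group. For the difference of the effects (15 called) they were 37 with no filter and 12 to 31.

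With the replicate number as a block the counts were 24, 4 and 106 in the Mertk, Bai1 and control comparisons. Correlations of deviations were -0.114 to 0.236 for same-numbered libraries and -0.204 to 0.246 for the others. The highest same-numbered value, 0.236, was that of Mertk KO 4 and Mertk WT 4, the libraries of first tag number 21. These correlations do not settle whether the numbers pair the samples. The block changed no call of a member.

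Values near 0 changed sign for a few named members. In the Bai1 contrast Sdha was -0.0109 with the rod covariate, -0.0224 without Bai1 Tg pos 2 and -0.00555 without Bai1 Tg neg 2, and Sdhc was 0.00112 without Bai1 Tg pos 1 and 0.00498 without Bai1 Tg pos 2. Leaving out 1 library they reached 0.0475 and -0.125 at the other ends. Between controls Sdha was 0.00172 with no filter, 0.00301 in 1 fit, 0.01 with limma-voom, 0.0923 with the rod covariate and 0.0135 with the length offset. Leaving out a library put it at 0.0195 (Bai1 Tg neg 2), 0.00363 (Mertk WT 1) and 0.0324 (Mertk WT 2), and Sdhd at -0.0126 (Mertk WT 1), with -0.0187 and 0.0745 at the other ends. With the rod covariate Ndufa8 was -0.0804, Sdhb -0.0226 and Uqcr10 -0.164.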
